A study of Mus musculus with 6 samples.

Results

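The AP-1 family was followed here through 10 genes of the deposited mouse expression table, taken by their gene symbols: Fos, Fosb, Fosl1, Fosl2, Jun, Junb, Jund, Atf3, Batf and Maff. They are 10 of the 54429 gene symbols in the table, and 9 of them were among the 11708 genes with enough signal to be tested. Batf was too low. AP-1 is a transcription factor made of a pair of proteins joined through leucine zippers, which are coiled helices next to a basic stretch that grips DNA. Jun proteins can pair with each other, whereas Fos proteins typically pair with a Jun protein. ATF, BATF and small MAF proteins join the same network of pairs. In macrophages, Fos, Jun, Junb and Atf3 are rapidly induced by growth factors, stress and microbial products through the MAP kinases, and Fos is required for a macrophage precursor to become an osteoclast.

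The cells were RAW264.7, a macrophage line from a virus-induced mouse tumour. Both groups were cultured for 3 d, with 3 sequencing libraries each. The control, Gel/S, was static culture on plain GelMA, which is gelatin bearing methacryloyl groups that crosslink into a hydrogel. The C/D group was kept with a GelMA/PEDOT:PSS+PLLA/PDA composite, in which PEDOT:PSS is a conducting polymer blend, and was given ultrasound at 48 kHz for 5 min. No group had the composite without ultrasound or ultrasound without the composite, so material and ultrasound cannot be told apart. The sources used here do not give the interval between ultrasound and harvest. The library columns of the treated group are named US_M and were read as C/D because ultrasound belongs to that group only, and every direction below rests on this reading. The labels do not say that replicates were separate cultures, so p-values measure the spread between these libraries, which may be technical. In RNA from bulk cells, fewer cells with a transcript and less transcript per cell cannot be told apart.

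Total counts were 15579679 to 16525699 in Gel/S and 12818831 to 15802627 in C/D, with the lowest total in C/D 1. Mitochondrial genes took 5.59% to 9.02% of counts in Gel/S and 9.17% to 10.4% in C/D, with the lowest share in Gel/S 1. All 8 macrophage markers passed the filter on low values, and of these Csf1r, the receptor for the growth factor of the lineage, fell (log2 fold change −0.48, adjusted p = 0.00736) while 7 did not pass. The summed level of these 8 markers was 13460 to 14060 FPKM in Gel/S and 10940 to 11110 FPKM in C/D, and their median log2 fold change was −0.25. Most of that sum was Lyz2, which encodes lysozyme, at a mean of 10200 FPKM in Gel/S and 8024 FPKM in C/D (adjusted p = 0.0649, not called). Of 12 markers of fibroblasts, epithelium, endothelium, lymphocytes, osteoblasts, hepatocytes and smooth muscle, none reached the filter, 4 were at 0 in every library and the highest value was 0.609 FPKM. Their summed level was 0.466 to 0.764 FPKM in Gel/S and 0.585 to 0.796 FPKM in C/D. FPKM is fragments per kilobase of gene length, scaled to library size, which allows levels to be compared between genes.

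The stretch of DNA before each start of transcription is shown for members whose values are described at length below. It was taken from RefSeq promoter windows on GRCm38.p6, which held 9 of the 10 members (Fosl1 was the exception) in 11 windows of 300 bases, with 3 alternative starts for Maff. The 250 bases before the start are printed 5′ to 3′ on the strand of the gene, and for Atf3 only the nearest 30. They lie at chr12:85473640-85473889 on the plus strand for Fos, chr7:19310046-19310295 on the minus strand for Fosb and chr4:95052223-95052472 on the minus strand for Jun. Those of Junb lie at chr8:84978749-84978998 on the minus strand, those of the second Maff start at chr15:79347270-79347519 on the plus strand and the 30 bases of Atf3 at chr1:191183334-191183363 on the minus strand. Capitals mark TGANNTCA, which spans the cyclic AMP response element TGACGTCA, and the shorter TGACG on either strand, where it reads CGTCA if it lies on the opposite strand.
Fos: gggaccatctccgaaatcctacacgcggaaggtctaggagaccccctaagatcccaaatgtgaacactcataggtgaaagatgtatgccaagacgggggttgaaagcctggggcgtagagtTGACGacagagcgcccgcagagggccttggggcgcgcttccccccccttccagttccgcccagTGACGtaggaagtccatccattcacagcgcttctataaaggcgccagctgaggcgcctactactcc
Fosb: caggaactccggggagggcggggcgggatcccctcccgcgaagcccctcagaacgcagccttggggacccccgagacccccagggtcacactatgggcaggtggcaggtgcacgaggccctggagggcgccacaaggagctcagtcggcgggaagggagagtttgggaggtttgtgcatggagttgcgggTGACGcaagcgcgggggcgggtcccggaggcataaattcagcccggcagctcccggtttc
Jun: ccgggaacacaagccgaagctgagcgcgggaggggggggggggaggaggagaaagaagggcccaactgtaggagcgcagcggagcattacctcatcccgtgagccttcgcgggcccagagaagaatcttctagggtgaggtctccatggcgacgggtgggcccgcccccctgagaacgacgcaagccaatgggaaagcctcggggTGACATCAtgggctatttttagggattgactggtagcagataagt
Junb: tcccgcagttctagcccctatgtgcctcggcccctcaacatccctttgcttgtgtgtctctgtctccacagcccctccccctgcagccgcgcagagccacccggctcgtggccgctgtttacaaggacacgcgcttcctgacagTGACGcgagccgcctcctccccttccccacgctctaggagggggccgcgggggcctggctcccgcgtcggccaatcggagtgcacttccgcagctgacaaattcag
Maff, second start: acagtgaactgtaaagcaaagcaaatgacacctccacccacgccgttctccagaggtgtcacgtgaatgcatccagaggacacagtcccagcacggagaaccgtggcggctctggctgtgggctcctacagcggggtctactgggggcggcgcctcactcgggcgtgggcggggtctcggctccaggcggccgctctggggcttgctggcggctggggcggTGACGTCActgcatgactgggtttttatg
Atf3, nearest 30 bases: cctggaagctattaatagcattaCGTCAgc

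The classical AP-1 site TGANTCA, searched on both strands, was in 0 of the 9 members' windows, and it was in 7.81% of 32851 promoter windows of the same length. The CArG box, which binds the serum response factor, was also in 0 of the 9 (1.63% of all windows). The windows reach 250 bases before the start and 50 past it. Sites farther away were not searched, so a count of 0 does not mean that a gene lacks the site. The cyclic AMP response element TGACGTCA was in 1, the second start of Maff, 29 to 22 bases before the start, and in 1.79% of all windows. The looser TGANNTCA and TGACG were searched after these results had been seen. TGANNTCA was in the windows of 3 members and in 4 of their 11 windows, beside 14.1% of all windows. In Jun it reads TGACATCA and lies 45 to 38 bases before the start, with another match, TGAGCTCA, past the start. In Jund it reads TGAAATCA and lies 61 to 54 bases before the start. Maff holds it at the second and the third start. TGACG, which the response element contains, was in the windows of 6 members, Fos, Fosb, Junb, Atf3, Batf and Maff. It was in 7 of the 11 windows, beside 20.8% of all windows. In Fos it lies 129 to 125 and 66 to 62 bases before the start, in Fosb 60 to 56, in Junb 106 to 102 and in Atf3 7 to 3. A match is a run of letters and not evidence of binding. The RefSeq start of Jund lies at base 70697739 of chromosome 8, before the gene start of 70698949 in the deposited table, so its window is not next to the transcript that was counted. That of Atf3 lies at base 191183333 of chromosome 1, inside the gene, which begins at 191218039 on the minus strand in the deposited table. The printed Atf3 bases and their TGACG match therefore belong to a start within the gene. The Fosl2 start, at 32136472, also lies past its gene start of 32135801.

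In C/D, 4 of the 9 tested members fell (Fosb, Junb, Atf3 and Maff), 1 rose (Fosl2) and 4 did not pass (Fos, Fosl1, Jun and Jund), by the edgeR quasi-likelihood test with Benjamini-Hochberg adjustment over all tested genes. Across all 11708 tested genes 27.0% were called at the same threshold of 0.05, with 13.9% lower and 13.1% higher in C/D. The log2 fold change of C/D over Gel/S was negative for 7 members and positive for 2, with a median of −0.30 over the members and 0.01 over all tested genes. The FPKM of the groups did not overlap for 6 of the 9 members, beside 46.2% of all tested genes. Atf3 and Maff kept their calls in all 14 alternative analyses, whereas the calls of Fosb, Junb and Fosl2 were each lost in 7 or more. Without C/D 1 or without C/D 2 the fallen members numbered 2, without Gel/S 1 they numbered 5, and without Gel/S 3 or any C/D library none rose.

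**Figure D1:**
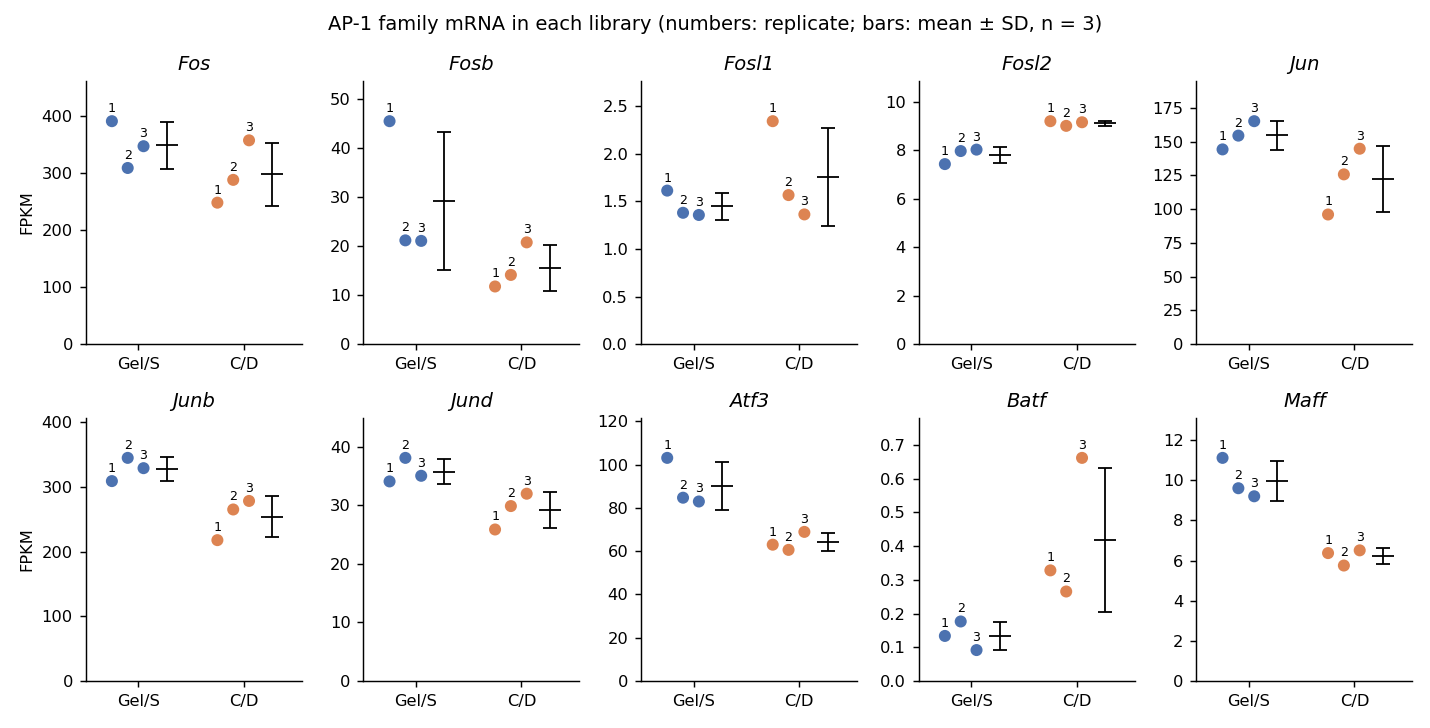
Level of each AP-1 family gene (FPKM, vertical axes from 0, a separate scale per gene) in the Gel/S libraries (blue) and the C/D libraries (orange), with replicate numbers above the points and the mean ± SD (n = 3) at their right. Fosb, Junb, Jund, Atf3 and Maff lay lower in every C/D library than in any Gel/S library, and Fosl2 and Batf lay higher. For Fosb the gap was small, with 20.8 FPKM in C/D 3 against 21.1 FPKM in Gel/S 3. The C/D 1 point is the lowest of all 6 libraries for Fos, Fosb, Jun, Junb and Jund.

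The Fos proteins were considered first. Fos (chromosome 12, 85473890 to 85477273, plus strand) encodes c-Fos, the classical immediate-early partner of Jun. It had the highest mean of the members in both groups, although Junb was above it in Gel/S 2. Its level was 390.3, 308.4 and 346.5 FPKM in Gel/S 1 to 3 and 247.7, 287.6 and 356.8 FPKM in C/D 1 to 3. The groups overlapped, since C/D 3 lay above Gel/S 2 and Gel/S 3. The mean was 348.4 ± 41.0 FPKM in Gel/S and 297.4 ± 55.2 FPKM in C/D (SD, n = 3), and the log2 fold change of −0.19 (SE 0.13) did not pass, with an adjusted p of 0.317. It passed in none of the 14 alternatives, whose adjusted p ranged from 0.111 to 0.736. The raw counts behind the C/D values were 7576, 10879 and 12623.

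Fosb (chromosome 7, 19302696 to 19310051, minus strand) encodes FosB and its shortened form ΔFosB, whose levels these gene counts do not separate. Its level was 45.55, 21.21 and 21.10 FPKM in Gel/S 1 to 3 and 11.79, 14.15 and 20.80 FPKM in C/D 1 to 3. Gel/S 1 stood far above every other library, and C/D 3 came close to Gel/S 2 and Gel/S 3. Fosb fell from 29.3 ± 14.1 to 15.6 ± 4.67 FPKM, with a log2 fold change of −0.86 (SE 0.27, adjusted p = 0.0343), the most negative value of the family. On the scale of the test, CPM (counts scaled to library size with TMM factors), C/D 3 (132.6) fell between Gel/S 3 (131.8) and Gel/S 2 (132.7), so that the groups overlapped there. The call depended on single libraries. Without Gel/S 1 the log2 fold change was −0.41 (adjusted p = 0.0555), without C/D 1 it was −0.70 (adjusted p = 0.149) and without C/D 2 it was −0.80 (adjusted p = 0.116). DESeq2, limma on log2 FPKM or TPM, and a replicate block also left it without a call, with adjusted p of 0.0697 to 0.126.

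Fosl2 (chromosome 5, 32135801 to 32157842, plus strand) encodes Fra-2, a Fos protein without the strong activation domain of c-Fos, and was the sole member that rose. It measured 7.435, 7.973 and 8.032 FPKM in Gel/S 1 to 3 and 9.206, 9.013 and 9.162 FPKM in C/D 1 to 3. All C/D libraries lay above all Gel/S libraries, and the C/D values were close together. The mean went from 7.81 ± 0.33 to 9.13 ± 0.10 FPKM, and the fitted log2 fold change was 0.27 (SE 0.081, adjusted p = 0.0299), or 1.2-fold. The direction held in all 14 alternatives (0.13 to 0.29), but the call was lost in 9. The log2 fold change was 0.13 (adjusted p = 0.293) with limma on TPM, a scale on which the median of all genes was itself −0.12. The adjusted p was 0.0807 when Gel/S 3 was left out, and 0.0832, 0.0891 and 0.0923 when C/D 1, 2 and 3 were.

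Fosl1 (chromosome 19, 5447703 to 5455945, plus strand) encodes Fra-1, the close relative of Fra-2. It was low, with 44, 38 and 36 counts in Gel/S 1 to 3 and 52, 43 and 35 counts in C/D 1 to 3, or 1.45 ± 0.14 and 1.76 ± 0.52 FPKM. In FPKM, C/D 1 was the highest library (2.342), and C/D 2 (1.566) and C/D 3 (1.363) lay inside the Gel/S range of 1.357 to 1.613. The log2 fold change of 0.31 (SE 0.26) did not pass (adjusted p = 0.403), nor did it in any alternative. Fosl1 shares 1163 exon bases with Ccdc85b on the opposite strand, which had 381 to 599 counts. The sources used here do not give the strand setting of the counting, so reads of these genes cannot be told apart and the Fosl1 level is uncertain.

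The Jun proteins are the usual partners of the Fos proteins. Junb (chromosome 8, 84974484 to 84978718, minus strand) encodes JunB, often a weaker activator than c-Jun. Its level was 309.0, 344.9 and 329.0 FPKM in Gel/S 1 to 3 and 217.7, 265.1 and 278.3 FPKM in C/D 1 to 3. The groups did not overlap, and C/D 1 was the lowest. Junb fell from 327.6 ± 18.0 to 253.7 ± 31.8 FPKM, with a log2 fold change of −0.33 (SE 0.11, adjusted p = 0.0449). That p lies just under the threshold, and leaving out any library other than Gel/S 1 moved it over the threshold. It was 0.0724 without Gel/S 2, 0.123 without Gel/S 3, and 0.155, 0.101 and 0.0617 without C/D 1, 2 and 3. Junb shares 173 exon bases with Prdx2 on the opposite strand, which had 2963 to 4178 counts and rose (log2 fold change 0.31, adjusted p = 0.0478).

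Jun (chromosome 4, 95049034 to 95052222, minus strand) encodes c-Jun, the target of the JNK kinases. It measured 144.3, 154.5 and 165.2 FPKM in Gel/S 1 to 3 and 96.08, 125.8 and 144.8 FPKM in C/D 1 to 3. C/D 3 reached the level of Gel/S 1, and C/D 1 was well below all others. The means were 154.7 ± 10.5 and 122.2 ± 24.5 FPKM, and the log2 fold change of −0.30 (SE 0.13) did not pass, with a p of 0.0458 before adjustment and an adjusted p of 0.115. Without Gel/S 1 it passed (−0.35, adjusted p = 0.0426), as it did without the filter on FPKM (−0.34, adjusted p = 0.00931). Leaving out that filter moved other members too. Fos went from −0.19 to −0.23, and the edgeR adjusted p of Fosb from 0.0343 to 6.24e-16. The antisense gene Junos, which shares 232 exon bases with Jun, had 61 to 90 counts, beside 3985 to 8186 for Jun.

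Jund (chromosome 8, 70698949 to 70700616, plus strand) encodes JunD, the Jun protein that is typically present without stimulation. It was 34.07, 38.09 and 35.03 FPKM in Gel/S 1 to 3 and 25.86, 29.86 and 31.97 FPKM in C/D 1 to 3. The groups did not overlap, yet the log2 fold change of −0.25 (SE 0.10) did not pass (adjusted p = 0.084). It passed without Gel/S 1 (−0.29, adjusted p = 0.0351), without the filter on FPKM (−0.29, adjusted p = 0.0444) and with limma on TPM (−0.38, adjusted p = 0.0354). On the TPM scale the median of all genes was itself −0.12. All 3 Jun genes thus had log2 fold changes between −0.33 and −0.25, of which only that of Junb passed. Jund shares 877 exon bases with the antisense gene Gm11175, which had 0 counts in every library. How reads of that stretch were counted is not given, so the Jund level is uncertain.

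**Figure D2:**
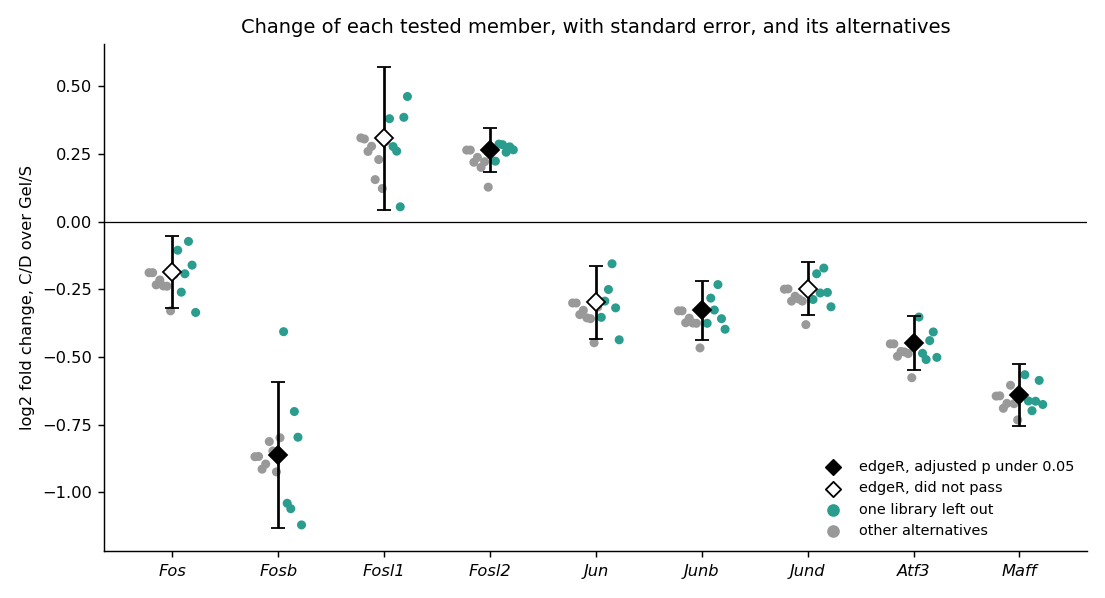
The log2 fold change of C/D over Gel/S for each tested member (diamonds, with standard error bars), filled where the edgeR adjusted p was under 0.05, with the values when a library was left out (green) and under the other alternatives (grey). No value of any member crossed 0, and the point nearest to 0 for Fosb, at −0.41, is the analysis without Gel/S 1.

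Atf3 and Maff had the smallest adjusted p of the family. Atf3 (chromosome 1, 191170296 to 191218039, minus strand) encodes a stress-induced factor that pairs with Jun proteins and represses inflammatory genes in macrophages. Its level was 103.1, 84.69 and 82.94 FPKM in Gel/S 1 to 3 and 62.97, 60.57 and 68.89 FPKM in C/D 1 to 3. No C/D library reached any Gel/S library. Atf3 fell from 90.3 ± 11.2 to 64.1 ± 4.28 FPKM, with a log2 fold change of −0.45 (SE 0.099, adjusted p = 0.00728). Over the 14 alternatives the log2 fold change was −0.58 to −0.35 and the adjusted p at most 0.0466.

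Maff (chromosome 15, 79346621 to 79359076, plus strand) encodes a small MAF protein, which has a leucine zipper but no activation domain. It was 11.12, 9.607 and 9.205 FPKM in Gel/S 1 to 3 and 6.373, 5.753 and 6.510 FPKM in C/D 1 to 3. The spread within each group was small beside the gap between them. Maff fell from 9.98 ± 1.01 to 6.21 ± 0.40 FPKM, with a log2 fold change of −0.64 (SE 0.12, adjusted p = 0.00262), and it passed in all 14 alternatives (−0.73 to −0.56, adjusted p at most 0.0187).

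Batf (chromosome 12, 85686669 to 85709087, plus strand) encodes a short zipper protein that pairs with Jun proteins, best known from lymphocytes. It had 3, 4 and 2 counts in Gel/S 1 to 3 and 6, 6 and 14 counts in C/D 1 to 3. Every C/D library held more counts than any Gel/S library, and C/D 3 held more than the other C/D libraries together. Summed over libraries, 9 counts stood against 26, a ratio per total count of 3.19 with an exact 95% interval of 1.45 to 7.73 that covers counting error only. Batf was under the filter and so was not tested, and without that filter it did not pass (log2 fold change 1.6, edgeR adjusted p = 0.13).

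The authors' deposited table gives its own comparison, with an unstated test. Turned to C/D over Gel/S, its log2 ratios in the authors' deposited table were −0.49 for Atf3 (adjusted p = 0.000139), −0.68 for Maff (8.78e-05), −0.37 for Junb (0.00394) and −0.34 for Jun (0.0369). Fosb at −0.91 (adjusted p = 0.121) and Fosl2 at 0.22 (adjusted p = 0.0802) did not reach 0.05 in the authors' deposited table. Atf3, Junb and Maff were therefore below that threshold in both analyses, while Jun, Fosb and Fosl2 were on different sides of it.

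The order of levels was set by a few genes. In Gel/S the mean FPKM ran from Fos through Junb, Jun, Atf3, Jund, Fosb, Maff, Fosl2 and Fosl1 to Batf, and neighbours whose ranges overlapped were Fos with Junb and Jund with Fosb. In C/D the order was the same but for Fosl2 and Maff, and Fos with Junb was the sole overlapping pair. Maff was above Fosl2 in all 3 Gel/S libraries and below it in all 3 C/D libraries, at 9.21 to 11.1 FPKM against 7.43 to 8.03 FPKM in Gel/S and 5.75 to 6.51 FPKM against 9.01 to 9.21 FPKM in C/D.

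Summed over the 10 members, the level was 1047, 970.9 and 998.4 FPKM in Gel/S 1 to 3 and 680.4, 799.7 and 919.2 FPKM in C/D 1 to 3. The sums did not overlap, and C/D 3 was nearest to Gel/S. Fos, Jun and Junb made up 80.6% to 84.2% of the sum in Gel/S and 82.5% to 84.8% in C/D. Among the minor members, the share of Fosl2 was 0.71% to 0.82% in Gel/S and 1.00% to 1.35% in C/D. The Fosb share was 4.35% in Gel/S 1 and between 1.73% and 2.26% in the other 5 libraries.

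**Figure D3:**
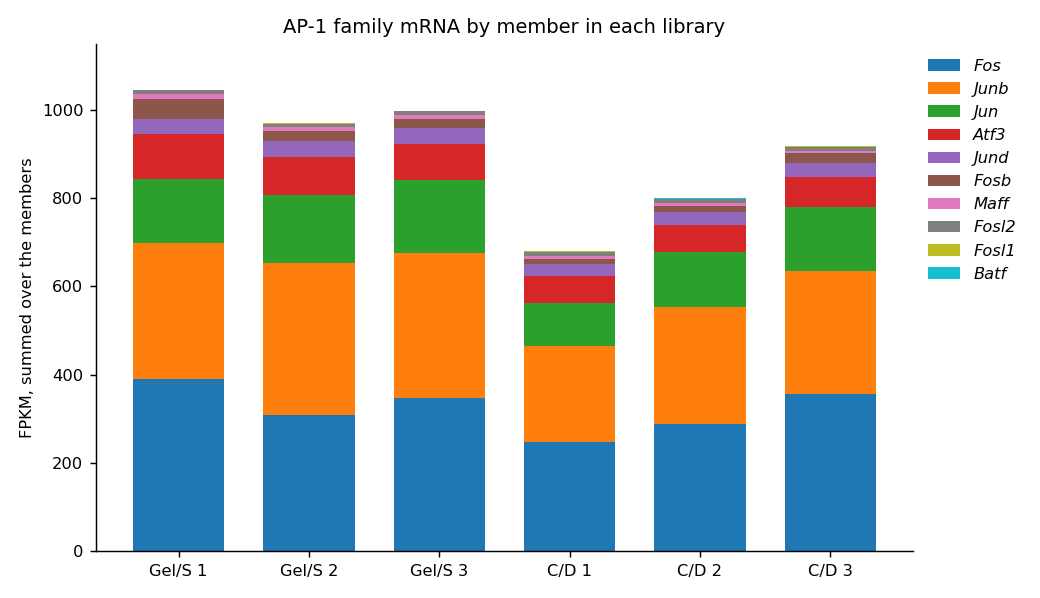
Stacked FPKM of the 10 members in each library, from 0, with Fos, Junb and Jun as the lowest 3 layers of every bar. The bar of C/D 1 is the shortest at 680.4 FPKM, and that of C/D 3, at 919.2 FPKM, is the closest to the Gel/S bars.

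The members did not all vary in step. Within C/D, library 1 was the lowest for 5 of the 9 tested members (Fos, Fosb, Jun, Junb and Jund) and library 3 the highest for 7. Within Gel/S, library 1 was the highest for 5 and the lowest for 4. C/D 1 also had the lowest total count and Gel/S 1 the lowest mitochondrial share. Pairs of libraries within a group were compared by the chi-square of their counts per degree of freedom over all tested genes. It was 45.56 between Gel/S 1 and 2 and 19.75 between Gel/S 1 and 3. The other pairs had 3.57 to 10.83. The part of these differences in the spread of the members was not tested. Over the 6 libraries, Pearson's r of log2 CPM was 0.98 between Atf3 and Maff and 0.99 between Junb and Jund. For Jun it was 0.94 with Junb and 0.92 with Jund. It was 0.56 between Jun and Maff and −0.96 between Fosl2 and Maff. These values describe 6 libraries that fall into 2 groups, and a difference between the groups enters every value.

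The 5 tested genes whose log2 CPM were most like those of Maff over the 6 libraries were Smc1a (r = 0.9989), Mcm6 (r = 0.9985), Eif6 (r = 0.9984), Ddias (r = 0.9974) and Rcor2 (r = 0.9968). Smc1a encodes a cohesin subunit and Mcm6 a subunit of the replicative helicase. Such likeness was common, since 1143 of 11707 genes had an r over 0.9 with Maff.

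Other leucine zipper partners of the family moved in both directions. Of 16 listed, 13 were tested, 3 rose, among them Mafg and Atf7, and 3 fell (Nfe2l2, Nfe2l1 and Atf2), and their median log2 fold change was 0.19. Over all tested genes 13.1% rose and 13.9% fell. Mafg, a small MAF protein like Maff, rose from 30.8 ± 2.12 to 40.3 ± 2.23 FPKM (log2 fold change 0.43, adjusted p = 0.00665), the direction opposite to Maff. Nfe2l2, which encodes the oxidative stress factor NRF2 and pairs with small MAF proteins, fell from 55.4 ± 0.83 to 42.8 ± 2.92 FPKM (−0.33, adjusted p = 0.015), as did its relative Nfe2l1 (−0.42, adjusted p = 0.0261). None of the partners was called as fallen when Gel/S 3, C/D 1 or C/D 2 was left out, with adjusted p of 0.0538, 0.0599 and 0.0508 for Nfe2l2 and of 0.0634, 0.085 and 0.117 for Nfe2l1. The call of Nfe2l1 was also lost in the 3 limma analyses (adjusted p of 0.0598 to 0.0708). Of all 48 genes that the authors' deposited table tags as leucine zipper (bZIP) factors, members included, 36 were tested, 9 rose and 9 fell, with a median of 0.03.

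The kinases that act on AP-1 mostly did not pass. Of 24 genes of the MAP kinase cascade, 20 were tested, 1 rose, 1 fell and 18 did not pass. Among all tested genes 13.1% rose and 13.9% fell. Map2k1, which encodes the ERK kinase MEK1, fell from 68.1 ± 7.35 to 46.3 ± 2.88 FPKM (log2 fold change −0.51, adjusted p = 0.00341). Map3k2 rose (0.47, adjusted p = 0.00417), a call that limma on TPM did not make (0.32, adjusted p = 0.122). Without Gel/S 2 the fallen genes of this list numbered 4.

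Of 12 factors that act at the Fos and Jun promoters, all were tested, 2 rose and 1 fell. The shares of all tested genes that rose and fell were 13.1% and 13.9%. Srf, the serum response factor, was the gene that fell, from 19.2 ± 0.89 to 12.2 ± 0.41 FPKM (log2 fold change −0.62, adjusted p = 0.000731), and it passed in all 14 alternatives. Elk4, an ETS factor that binds next to it, rose from 16.6 ± 1.46 to 23.0 ± 1.09 FPKM (0.51, adjusted p = 0.00294). Crem, a factor of the cyclic AMP response element, rose (0.49, adjusted p = 0.0275), a call lost in 8 alternatives. Among these, leaving out Gel/S 1, C/D 1, C/D 2 or C/D 3 gave an adjusted p of 0.0585, 0.0865, 0.0865 and 0.0518.

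Of 14 genes for the turnover of AP-1 proteins and mRNAs, 13 were tested, 1 rose and 2 fell. Over all tested genes 13.1% rose and 13.9% fell. Zfp36l1, which binds AU-rich elements and speeds decay of such mRNAs, rose from 19.3 ± 1.68 to 26.5 ± 1.26 FPKM (log2 fold change 0.51, adjusted p = 0.00227; limma on TPM 0.37, adjusted p = 0.0704). Trib1, an adaptor of the COP1 ubiquitin ligase, fell from 5.81 ± 0.80 to 3.00 ± 0.91 FPKM (−0.91, adjusted p = 0.00413). Khsrp, another decay factor, fell (−0.35, adjusted p = 0.0373) but lost its call when Gel/S 3, C/D 1 or C/D 3 was left out (adjusted p of 0.11, 0.138 and 0.0844), under the replicate block (0.0704) and in the 3 limma analyses (0.0595 to 0.0634).

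Genes known as AP-1 targets in macrophages and osteoclasts were read from the same fit. Of 22 listed, 14 were tested, 6 fell (Plau, Plaur, Ccnd1, Cd44, Tnf and Ccl2), 2 rose (Hmox1 and Acp5) and 6 did not pass, with a median log2 fold change of −0.28. Over all tested genes 13.9% fell and 13.1% rose. Plau, the urokinase protease, was 107.2, 101.9 and 101.8 FPKM in Gel/S 1 to 3 and 47.23, 49.99 and 54.71 FPKM in C/D 1 to 3. It fell by 0.99 on the log2 scale (adjusted p = 6.29e-05), with no overlap of the groups. Its receptor Plaur fell from 28.3 ± 1.99 to 12.2 ± 1.75 FPKM (−1.17, adjusted p = 9.8e-05). Ccnd1, which encodes cyclin D1, fell from 45.6 ± 9.46 to 19.5 ± 1.60 FPKM (−1.18, adjusted p = 0.000167), and Cd44, a hyaluronan receptor, fell from 26.2 ± 4.31 to 13.6 ± 0.56 FPKM (−0.90, adjusted p = 0.000322). These 4 genes passed in all 14 alternatives. Hmox1, the haem-degrading enzyme that NRF2 also drives, rose from 123.4 ± 14.6 to 195.6 ± 34.3 FPKM (0.71, adjusted p = 0.00343). Acp5, the osteoclast acid phosphatase, rose from 14.8 ± 1.08 to 20.8 ± 3.08 FPKM (0.53, adjusted p = 0.00818). Many of these genes also answer to other factors, and whether AP-1 sat at them was not measured. This list and the others here were chosen with earlier results of these data known, so their counts are descriptions only.

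Other immediate-early families were set beside the AP-1 genes. Of 10 EGR, NR4A and IER genes, 8 were tested, 4 fell (Egr1, Egr2, Ier3 and Ier5) and 1 rose (Nr4a1), with a median log2 fold change of −0.34. Among all tested genes 13.9% fell and 13.1% rose. Egr1, a zinc finger factor induced along with Fos, was 54.02, 48.95 and 42.81 FPKM in Gel/S 1 to 3 and 24.01, 29.44 and 33.85 FPKM in C/D 1 to 3. It fell by 0.70 on the log2 scale (adjusted p = 0.00254), and Egr2 fell by 0.76 (adjusted p = 0.00475). In Egr1, as in Fos, Jun and Junb, C/D 1 was the lowest and C/D 3 the highest of the C/D libraries. Nr4a1, an orphan nuclear receptor, rose from 1.86 ± 0.56 to 3.38 ± 0.38 FPKM (0.91, adjusted p = 0.00762), and not with limma on TPM (adjusted p = 0.0596). Ier3 fell (−0.43, adjusted p = 0.00807), but not without C/D 2 (adjusted p = 0.0537). The fallen genes of this list numbered 2 without C/D 2.

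**Figure D4:**
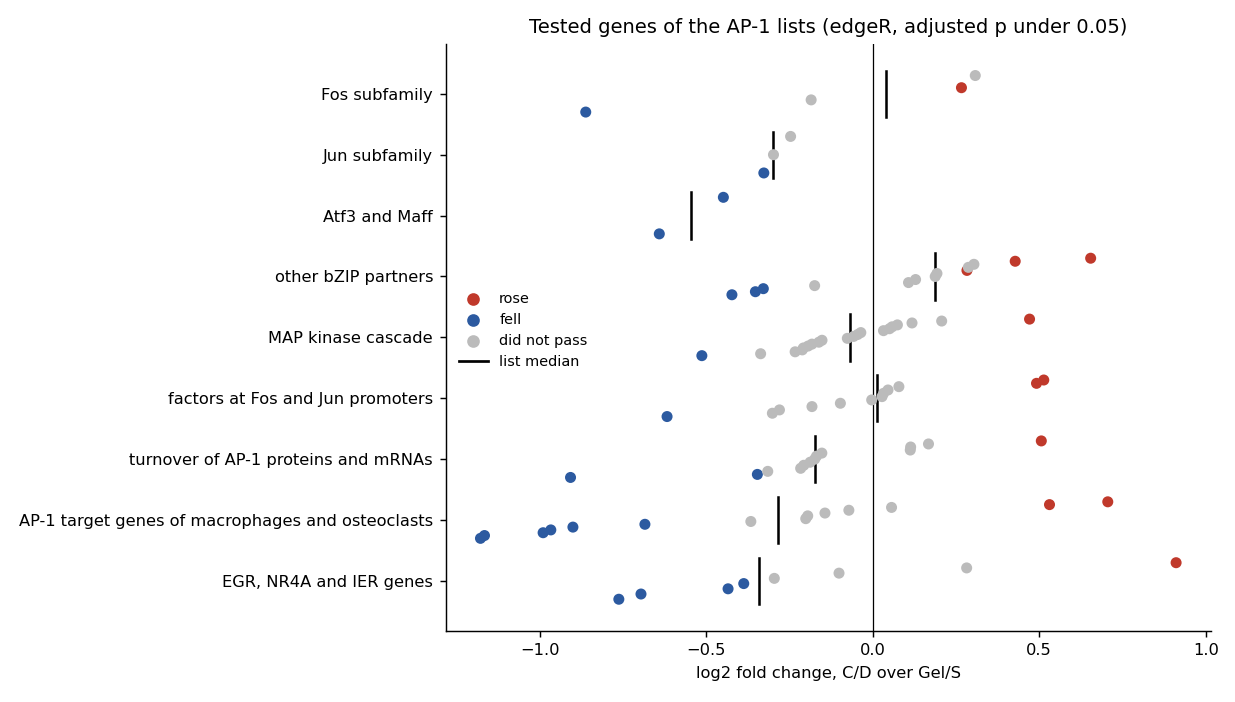
The log2 fold change of C/D over Gel/S for each tested gene of the AP-1 groups and of the lists around them, coloured by the edgeR call (red rose, blue fell, grey did not pass), with a bar at the median of each list. The AP-1 targets and the EGR, NR4A and IER genes have medians of −0.28 and −0.34, the MAP kinase genes lie around 0, and the leucine zipper partners lie on both sides of 0.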

How the data were processed

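RNA of 6 libraries, 3 Gel/S and 3 C/D, was sequenced with a SMARTER mRNA-Seq kit, per the labels' protocols. Raw counts per gene were made by the authors without normalization, per the file headers. The deposited FPKM values are the authors' counts per kilobase and per scaled total. The authors deposited log2 ratios with Gel/S as numerator, which were multiplied by minus 1 to read as C/D over Gel/S. The deposited p-values, raw and adjusted, come from a test that the authors' sources used here do not name. The submitters' processing notes name the build as GRCm38 (mm10). The sources used here do not give the aligner, the counter or the strandedness, and the labels name different RNA extraction reagents in separate fields.

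Symbols that a spreadsheet had turned into dates (27) were restored, counts of 100 symbols with several entries were summed, and no entry lacked a gene. Genes with a mean FPKM of at least 1 (11708, holding over 99% of counts) were tested on the deposited counts with the edgeR 4.0.16 quasi-likelihood test and TMM factors in R 4.3.3, with Benjamini-Hochberg adjustment and a threshold of 0.05. Every adjusted p is from that test unless another source is named, and the standard error (SE) is the size of the log2 fold change divided by the root of the F statistic. Alternatives used DESeq2 1.42.0, limma 3.58.1 and other filters and scalings, and left out each library in turn. The pipeline was tested on simulated counts. Overlapping exons were taken from GENCODE M21. The members and lists were chosen with earlier results of these data known. Named genes are all members, up to 4 tested genes per other list with the smallest adjusted p, and the 5 genes most like Maff. A gene taken by this rule is not reported here. Further genes named where a list had 5 or fewer called genes in a direction, or Tnf and Ccl2, were chosen after their values were seen.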

Additional observations from a re-analysis of the deposited data

How the results depend on the processing

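No member changed sign in any of the 14 alternatives. Atf3 and Maff kept their calls in all of them, and Fos and Fosl1 passed in none. The cause of the other changes was not tested. The members that fell numbered 4, and 2 with limma on log2(FPKM + 1) or on log2(FPKM + 0.1), 6 without the FPKM filter, and 2 to 5 when a library was left out, with 2 without C/D 1 or C/D 2. The single rise, of Fosl2, went to 0 without the FPKM filter, under each limma analysis, under the replicate block, and when Gel/S 3 or any C/D library was left out, and so ranged from 0 to 1 when a library was left out. At an unadjusted p under 0.05 the members higher in C/D numbered 2 without the FPKM filter (edgeR), 1 with limma on FPKM with either pseudocount, 0 with limma on TPM and 1 in edgeR with the replicate block or with each library left out in turn. The members lower in C/D at that unadjusted p numbered 6 in the reported test, 7 without the FPKM filter, 6 in each limma analysis and with the replicate block, and 2 to 7 when a library was left out, with 2 without C/D 1 and 7 without C/D 3. Over all genes, 1631 fell, and 876 to 2089 when a library was left out (1005 without Gel/S 3, and 902, 876 and 1006 with C/D 1, 2 and 3 left out). The genes that rose numbered 1532, and 1020 and 1008 with limma on log2 FPKM with a pseudocount of 1 and 0.1, 633 with limma on TPM, and 887 to 1989 when a library was left out (887 without Gel/S 3, and 910, 928 and 954 with C/D 1, 2 and 3 left out). Of all calls 48.4% were rises, and with these limma analyses 40.9%, 40.3% and 29.5%, where all genes had a median of −0.03, −0.03 and −0.12 on the log2 scale. The deviations of same-numbered libraries from their group means correlated at −0.057, −0.059 and 0.045, and no library correlated best with its own number. Deviations from a mean of 3 libraries are not independent, so these values do not settle whether libraries were paired. With the replicate block 1302 genes fell and 1242 rose, and the members were 3 and 0. The lowest counts per library were those of Batf, 2 to 14, and Fosl1, 35 to 52.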
